A study of Mus musculus with 6 samples.

Results

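Chromatin remodelers and histone-modifying enzymes were taken from the table of normalised read counts by gene symbol. They are the Smarca to Smarce genes with Arid1a and Arid1b, the Chd genes, the numbered Hdac genes, the Kdm genes, the Kmt2 genes and the Kat genes, with Kdm5d left out. The rule gave 61 of the 11108 listed genes, namely 15 Smarc and Arid1 genes, 8 Chd genes, 9 Hdac genes, 15 Kdm genes, 5 Kmt2 genes and 9 Kat genes. Of these, Smarca5-ps and Kat2b-ps are annotated as processed pseudogenes, so 59 members are not pseudogenes. In all, 60 members had a mean normalised read count of at least 10 and were tested. Kat2b-ps was below that minimum. Chd5, Chd7, Hdac6, Hdac9, Kdm4d, Kdm8 and Smarca1, which the annotation also places in these families, have no values here.

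Chromatin remodelers use ATP to slide, evict or exchange nucleosomes. Smarca4 (BRG1) and Smarca2 (BRM) are the alternative motors of the SWI/SNF or BAF complexes. Smarca5 is an ISWI motor, and Chd3 and Chd4 are motors of the NuRD complex. Histone marks are written by acetyltransferases (Kat) and H3K4 methyltransferases (Kmt2) and removed by deacetylases (Hdac) and demethylases (Kdm). Several members are known to be needed in blood stem cells, among them Kmt2a, which maintains Hox gene expression, Kat6a, and Kdm1a.

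The RNA-seq libraries came from hematopoietic stem cells of mouse bone marrow, 3 labelled wild type (WT) and 3 labelled Mcph1-/-, made by the Smart-seq2 method from 200 cells each. The cells were sorted as lineage-negative cells that carried Sca-1, c-Kit and CD150 and lacked CD34, and no treatment was given. Mcph1 encodes microcephalin, which acts in chromosome condensation and in responses to DNA damage. The labels give neither the age, sex nor strain of the mice, nor the deleted part of Mcph1, nor whether each library was made from its own mice. The p-values below therefore set the difference between genotypes against the spread among libraries of a genotype, and that spread may be technical. Mcph1 was read in every library, at normalised read counts of 160, 341 and 34.4 in WT and 428, 37.7 and 234 in Mcph1-/-, so its reads cannot check the genotype, and directions rest on the labels.

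A normalised read count is the number of reads of a gene divided by a size factor for its library. The libraries held 8102605 to 8655123 reads in WT and 9464810 to 10455908 in Mcph1-/-. Members with reads numbered 58, 58 and 59 of 61 in the WT libraries and 59, 59 and 60 in Mcph1-/-. A count of 0 allows a normalised read count of up to 2.46 to 3.25 (3 reads), depending on the library, and such limits cover counting error only. All 14 stem cell markers looked for had values, among them Kit and Ly6a (Sca-1) in every library, while Slamf1, which encodes the sorting antigen CD150, had 0 reads in WT replicate 1 and 1 read in Mcph1-/- replicate 3. Summed over the 14 genes, the stem cell markers stood at 25655 to 28480 in WT and 19875 to 21634 in Mcph1-/-. All 14 markers of dividing cells were higher in Mcph1-/- by mean log2 value, and their sum was 5408 to 6767 in WT and 13515 to 14769 in Mcph1-/-. The 7 neutrophil markers with values, of 10 looked for, summed to 58564 to 67847 in WT and 3287 to 18724 in Mcph1-/-. S100a8, S100a9, Ngp and Camp were lower in every Mcph1-/- library than in any WT library. Prtn3, Elane and Mpo overlapped, with means of 5380, 1251 and 1987 in WT and 3899, 2700 and 1637 in Mcph1-/-. The 5 megakaryocyte markers summed to 1664 to 5010 in WT and 1264 to 2537 in Mcph1-/-. The 11 erythroid markers, of 12, summed to 4633 to 22251 in WT and 31378 to 39523 in Mcph1-/-. Of these 11, 7 were higher and 4 lower in Mcph1-/-, Car1 alone averaged 2724 in WT and 28533 in Mcph1-/-, and without Car1 the sum was 2656 to 17684 and 7662 to 9172. The sum of 2 monocyte markers, Lyz2 and Cd68, of 7 was 7765 to 12578 and 4436 to 4634. Of B cell markers Cd79a, Cd79b and Ebf1 had values, summing to 878 to 1829 in WT and 374 to 2472 in Mcph1-/-, and of T and NK cell markers Nkg7 and Klrb1c, summing to 540 to 2463 and 912 to 1954, while Ms4a1, Pax5, Cd3d, Cd3e, Cd4 and Cd8a had no values here. The part these genes had in any difference between members was not tested, and in bulk libraries fewer cells of a type cannot be told apart from less RNA per cell.

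The comparison asked how transcripts of these enzymes differ between stem cells of the 2 genotypes. The demethylase gene Kdm4b was read in all WT libraries and was at or near 0 in Mcph1-/-, and the acetyltransferase gene Kat14 averaged 11.7 ± 5.59 in WT against 145 ± 28.4 in Mcph1-/- (SD, n = 3). The remodeler genes Chd1 and Smarca2 stood lower in every Mcph1-/- library than in any WT library, at 0.46 and 0.54 of their WT means. So did Hdac1, Kmt2d, Kdm4b and 3 further demethylase genes, making 8 of 60 members, 13.3%, against 6.8% of all tested genes. For 6 members, 10%, every Mcph1-/- library lay above every WT library, against 7.4% of all tested genes. The subunit genes Smarcb1 and Chd4 had overlapping libraries and ratios of means of 0.97 and 1.03. No member passed the threshold, an adjusted p of 0.05 by limma-trend with Benjamini-Hochberg adjustment over all 10846 tested genes, of which 4 (0.0369%) passed. An unadjusted limma p under 0.05 was found for 5 of 60 members, 8.33%, against 7.71% of all tested genes. These were Kdm4b, Chd1 and Smarca2, which were lower in Mcph1-/-, and Kat14 and Smarcal1, which were higher. edgeR and limma-voom called 0 members, edgeR giving 4 an unadjusted p under 0.05, 6.67%, against 5.47% of all tested genes. DESeq2 called 2 members, Kdm4b and Kat14, of the 60, and 2.23% of the 10665 genes for which it gave an adjusted p.

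By the mean of log2 values, 27 tested members were higher and 33 lower in Mcph1-/-. The median log2 fold change (Mcph1-/- over WT) was -0.09 over the members and 0.08 over all tested genes, of which 53.8% were higher. The 3 Mcph1-/- libraries all lay above the 3 WT libraries for 6 of 60 members, 10%, against 7.4% of all tested genes. They were Hdac7, Hdac10, Kat14, Arid1b, Smarcal1 and Smarca5-ps. All 3 lay below WT for 8 members, 13.3%, against 6.8% of all tested genes. They were Chd1, Hdac1, Kdm3a, Kdm4b, Kdm5b, Kdm6a, Kmt2d and Smarca2. The summed normalised read count of all members was 27207 ± 1085 in WT against 24584 ± 1133 in Mcph1-/- (SD, n = 3), 90.4% of WT, while that of all listed genes was 97.8% of WT.

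**Figure D1:**
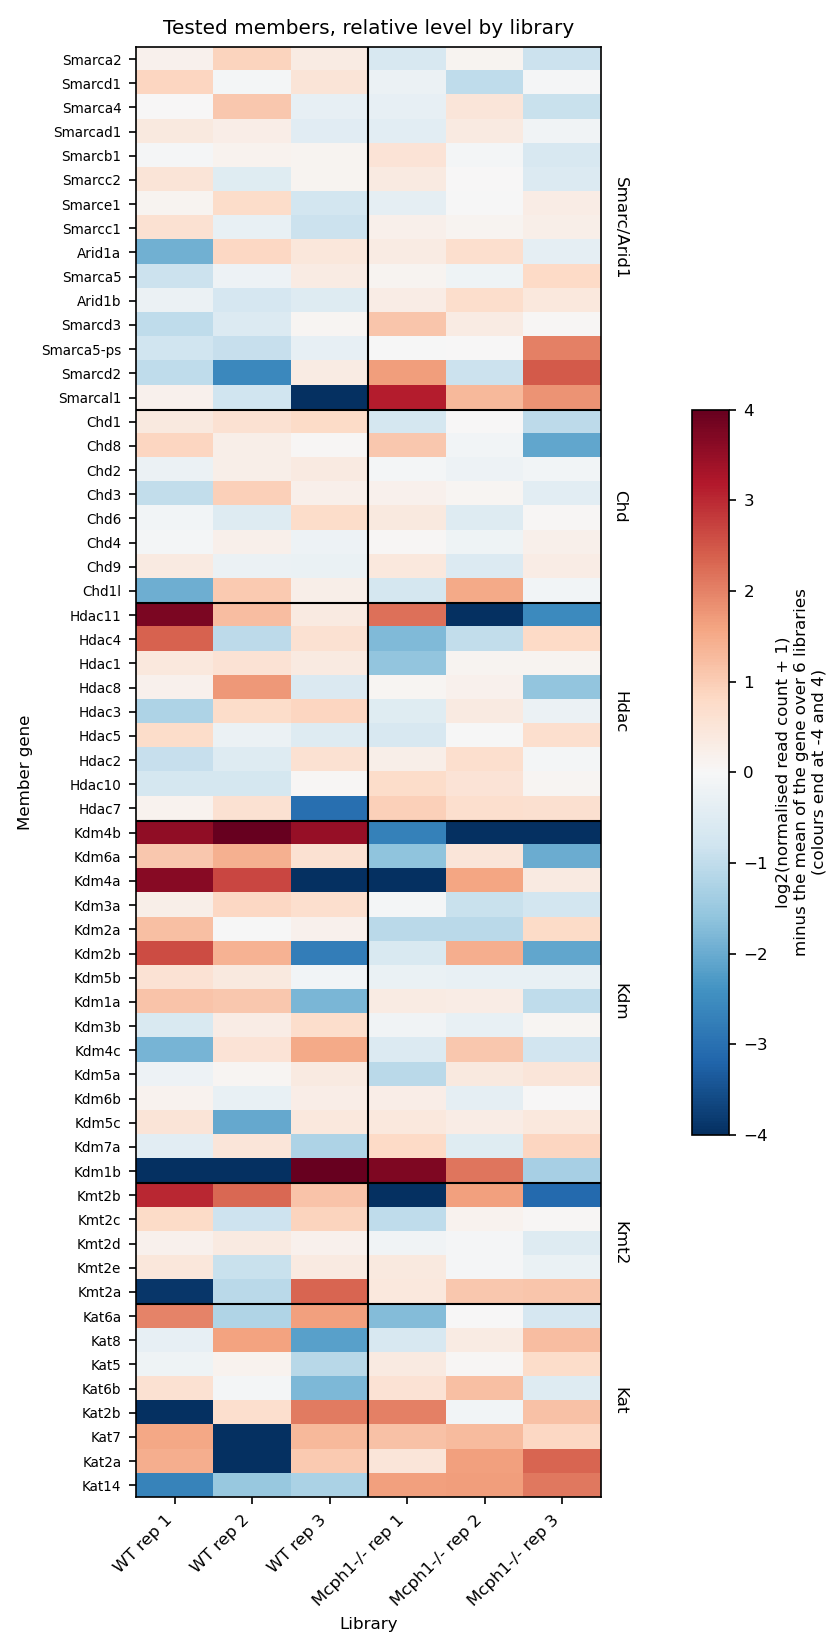
Heat map of the 60 tested members (rows, by family and then by fold change) in the 6 libraries (columns). Colour is log2(normalised read count + 1) minus the mean of the gene over the 6 libraries, with colours ending at -4 and 4. Kdm4b is dark red in the 3 WT libraries and dark blue in Mcph1-/-, Kat14 shows the opposite order, and most other rows vary within a genotype.

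The histone demethylases were the family with the most members below WT. Of 15 tested Kdm genes, 12 were lower and 3 higher in Mcph1-/- by mean log2 value, with a median log2 fold change of -0.27 (-0.60 by DESeq2). For 4 of the 15, Kdm4b, Kdm3a, Kdm5b and Kdm6a, every Mcph1-/- library lay below every WT library, 26.7%, against 6.8% of all tested genes. The family median was -0.77 without WT replicate 3 and -0.57 without Mcph1-/- replicate 2. The number of the 15 that were lower was 8 without WT replicate 3, and 13 by DESeq2. The summed normalised read count of the family was 6157, 5660 and 5747 in the WT libraries, in replicate order, and 4227, 4304 and 4225 in those of Mcph1-/-. The libraries of the genotypes did not overlap, and the Mcph1-/- mean was 72.6% of the WT mean. The sums over all members and over all listed genes did not overlap either, at 90.4% and 97.8% of WT. In a sum of reads, long and highly read genes weigh most. Kdm5b gave 28.1% of the family's summed difference, Kdm4b 14.8%, Kdm3a 10.5% and Kdm6a 9.95%. In the same libraries the summed stem cell markers were at 75.6% of WT, and their part in this difference was not tested.

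Kdm4b encodes a JmjC demethylase that removes methyl groups from lysine 9 of histone H3 (H3K9). The gene lies at chr17:56326062-56402870 on the plus strand of mm10. Normalised read counts of Kdm4b were 213, 300 and 202 in the WT libraries, in replicate order, and 1.82, 0 and 0 in those of Mcph1-/-. All Mcph1-/- values lie under the 3-read limit, and all WT values are far above it. Counted in reads, Kdm4b had 687 in the WT libraries and 2 in the Mcph1-/- libraries, and adjusted for depth the ratio of WT to Mcph1-/- was 410, with exact 95% bounds of 113 and 3389 for counting error alone. The log2 fold change was -7.38 with an SE of 1.47, and it did not pass by limma (adjusted p = 0.421) or edgeR (adjusted p = 0.605), but it passed by DESeq2 (adjusted p = 5.5e-07). A gene is listed only with reads in at least 4 libraries, and Kdm4b reached that number through the single Mcph1-/- replicate 1.

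The other Kdm3 and Kdm4 genes, which likewise act on H3K9 or H3K36, had lower mean log2 values in Mcph1-/-, by smaller amounts. Kdm3a, an H3K9 demethylase, stood at 242, 367 and 325 in WT and 194, 110 and 122 in Mcph1-/-. The groups were separate, with a log2 fold change of -1.15 (SE 0.64, adjusted p = 0.667 by limma). Kdm4a was scattered, at 216, 109 and 0 in WT and 0, 50.9 and 21.4 in Mcph1-/-, with 1 library of each genotype at 0. Kdm3b and Kdm4c overlapped between genotypes, with log2 fold changes of -0.26 (SE 0.47) and -0.14 (SE 1.08). Summed over Kdm3a, Kdm3b, Kdm4a, Kdm4b and Kdm4c, the level was 1378 ± 348 in WT against 721 ± 87.3 in Mcph1-/- (SD, n = 3), 52.4% of WT.

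Among the H3K4 demethylases, Kdm5b was the most read. It stood at 1593, 1403 and 982 in WT and at 881, 870 and 874 in Mcph1-/-. The Mcph1-/- libraries were almost equal, with an SD of 5.52, and all lay below the lowest WT library. The log2 fold change was -0.57 (SE 0.27, adjusted p = 0.662 by limma). Its relatives did not share this order. Kdm5a was at 431, 522 and 644 in WT and 235, 659 and 693 in Mcph1-/-, and Kdm5c, an X-linked gene, at 287, 47.4 and 267 in WT and 267, 245 and 271 in Mcph1-/-. Kdm5c was thus level in all but WT replicate 2.

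Kdm1a (LSD1), the flavin-dependent H3K4 demethylase of the CoREST complex, was at 525, 508 and 66.8 in WT and 297, 296 and 117 in Mcph1-/-. Its log2 fold change was -0.27 (SE 0.93), the low value of WT replicate 3 lying below every Mcph1-/- library. Kdm1b (LSD2), the relative of Kdm1a, had 0 reads in WT replicates 1 and 2 and a normalised read count of 488 in WT replicate 3, against 296, 97.6 and 8.04 in Mcph1-/-. Its log2 fold change was 3.03 (SE 2.72) although its mean was higher in WT, 163 against 134, and its exons overlap those of Dek on the other strand.

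The H3K27 demethylases are Kdm6a and Kdm6b. Kdm6a (UTX), an X-linked gene, stood at 231, 293 and 168 in WT and 34.7, 152 and 26.8 in Mcph1-/-. Its groups did not overlap, with the closest values at 168 and 152, and its log2 fold change was -2.08 (SE 1.04, adjusted p = 0.662 by limma). Kdm6b (JMJD3) stood at 1084, 809 and 1201 in WT and 1183, 770 and 992 in Mcph1-/-, with a log2 fold change of -0.07 (SE 0.29). The Kdm6b libraries of the genotypes covered the same range, and its exons overlap the opposite-strand gene Kdm6bos. Kdm2a, Kdm2b and Kdm7a, which act on H3K36, H3K4 or H3K9, had log2 fold changes of -0.92 (SE 0.79), -0.82 (SE 1.71) and 0.79 (SE 0.95), with overlapping libraries.

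**Figure D2:**
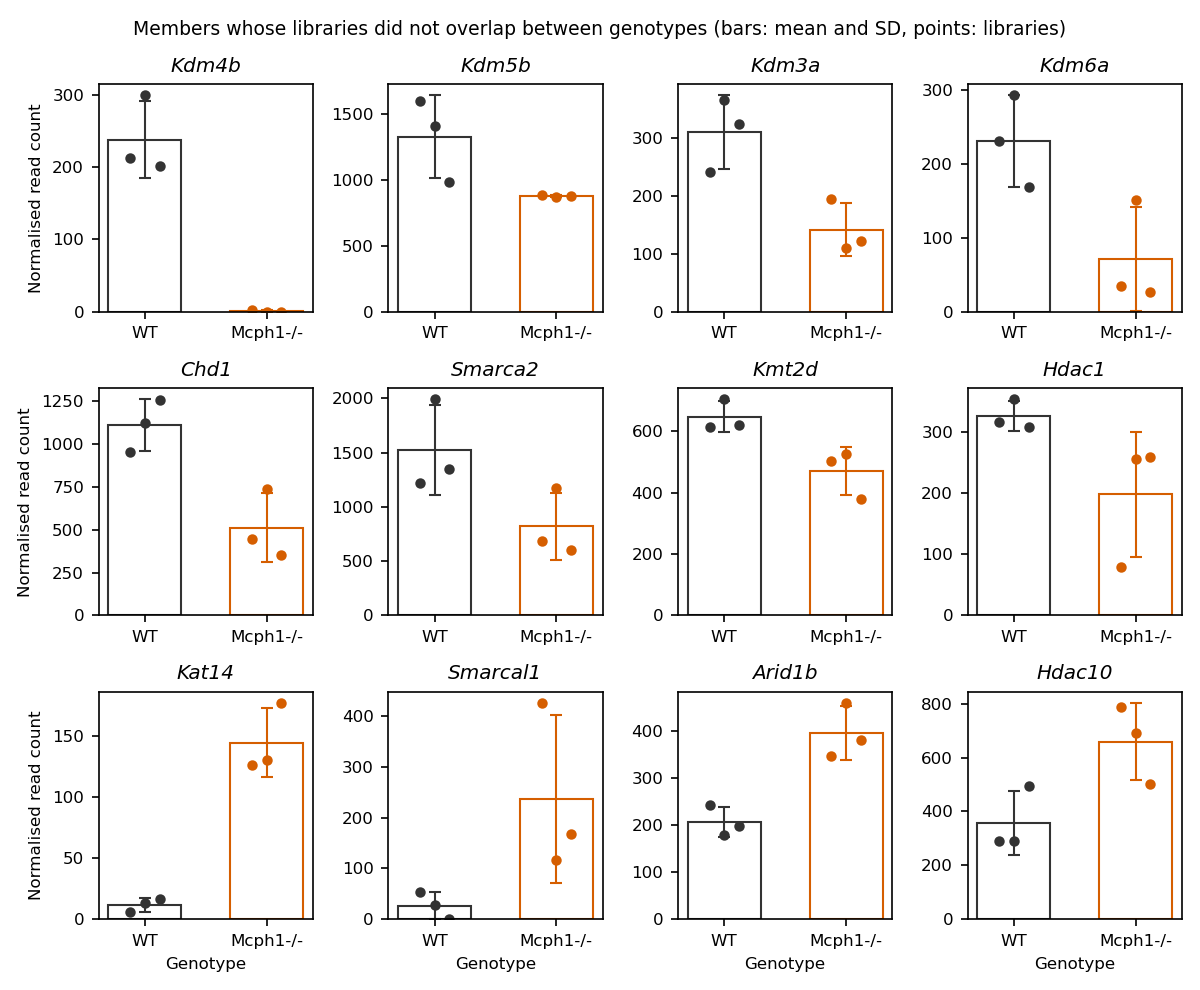
Normalised read counts of 12 of the 14 members whose libraries did not overlap between genotypes (Hdac7 and Smarca5-ps are not drawn). Points are libraries, bars are means, error bars are 1 SD (n = 3) ending at 0 where they would cross it, and each panel has its own vertical axis from 0. Kdm4b is at or near 0 in the 3 Mcph1-/- libraries, and the closest pair of values in the Kdm6a panel is 168 and 152.

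The promoters of the 3 separated demethylase genes with an entry are shown so that they can be compared by sequence, and Kdm4b and Chd1 are named only. Each runs from 250 bases before to 50 bases after a transcript start (RefSeq, GRCm38.p6), with motif matches in capitals. The motifs searched, on both strands, were the GC box GGGCGG, the CCAAT box, the ETS motif CCGGAAG, the NRF1 motif GCATGCGC, the E2F motifs TTTCGCGC, TTTGGCGC and TTTCCCGC, and the TATA box TATAAA. A match on the reverse strand stands in capitals as its reverse complement. Of Kdm3a the first of 3 annotated starts is shown, chr6:71632868-71633167 on the minus strand. Kdm5b is chr1:134559928-134560227 and Kdm6a chrX:18162325-18162624, on the plus strand.
Kdm3a: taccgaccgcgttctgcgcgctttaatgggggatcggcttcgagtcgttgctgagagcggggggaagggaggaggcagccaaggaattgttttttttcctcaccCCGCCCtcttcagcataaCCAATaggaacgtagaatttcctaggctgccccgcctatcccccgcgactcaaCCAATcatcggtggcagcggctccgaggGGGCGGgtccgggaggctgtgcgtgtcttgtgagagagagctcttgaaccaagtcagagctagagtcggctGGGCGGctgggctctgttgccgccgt
Kdm5b: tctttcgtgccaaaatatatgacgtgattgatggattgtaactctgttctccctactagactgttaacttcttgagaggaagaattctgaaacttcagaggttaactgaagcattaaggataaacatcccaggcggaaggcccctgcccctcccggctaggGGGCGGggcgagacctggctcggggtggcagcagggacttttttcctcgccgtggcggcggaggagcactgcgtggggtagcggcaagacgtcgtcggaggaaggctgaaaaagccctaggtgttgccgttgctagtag
Kdm6a: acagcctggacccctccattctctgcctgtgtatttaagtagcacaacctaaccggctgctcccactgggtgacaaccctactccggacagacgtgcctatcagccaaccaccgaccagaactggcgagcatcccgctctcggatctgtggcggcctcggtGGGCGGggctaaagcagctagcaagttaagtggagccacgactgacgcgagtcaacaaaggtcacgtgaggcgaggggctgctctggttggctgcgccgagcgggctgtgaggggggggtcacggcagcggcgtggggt
The Kdm3a window held 3 GC boxes and 2 CCAAT boxes, while those of Kdm5b and Kdm6a held 1 GC box each and no other motif searched. The ratio of observed to expected CpG was 0.88 for Kdm3a, 0.78 for Kdm5b and 0.71 for Kdm6a.

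Promoters were matched for 44 of the 59 members that are not pseudogenes, 1 per gene. The observed to expected CpG ratio was over 0.6 in 40 of the 44, 90.9%, against 76.0% of the 7802 tested genes with an entry. A GC box was present in 72.7% of member promoters, 65.5% of those of tested genes and 35.7% of all 32851 promoters in the table. For the CCAAT box the shares were 36.4%, 39.2% and 37.4%, for ETS 15.9%, 20.9% and 8.86%, and for NRF1 9.09%, 6.14% and 2.71%. An E2F motif was found in 1 of the 44, 2.27%, against 3.83% and 1.84%, and a TATA box in 4.55%, against 6.49% and 13.6%. These matches describe letters in a window and no binding was measured here.

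The SWI/SNF and related remodelers divided almost evenly, with 8 of 15 higher and 7 lower in Mcph1-/- and a median log2 fold change of 0.36. The median was 0.08 by DESeq2 and 0.11 by edgeR, 0.016 without WT replicate 3, 0.12 without WT replicate 1, and 0.19 without Mcph1-/- replicate 2 or 3. Their summed level was 6987 ± 1002 in WT against 6843 ± 800 in Mcph1-/- (SD, n = 3). The motor Smarca2 was at 1218, 1993 and 1350 in WT and 689, 1174 and 600 in Mcph1-/-. Every Mcph1-/- library lay below every WT library, the closest pair being 1174 and 1218. The log2 fold change was -0.92 (SE 0.34, adjusted p = 0.626 by limma). The alternative motor Smarca4 was at 638, 1320 and 499 in WT and 499, 874 and 343 in Mcph1-/-, with a log2 fold change of -0.50 (SE 0.50) and overlapping libraries. WT replicate 2 and Mcph1-/- replicate 2 were the highest libraries of their genotypes for both motors. Summed over Smarca2 and Smarca4, the level was 2339 ± 843 in WT and 1393 ± 581 in Mcph1-/-, 59.6% of WT.

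The Smarca2 promoter is shown because Smarca2 has the smallest p of this family (chr19:26604910-26605209, plus strand, RefSeq GRCm38.p6, motif matches in capitals as before).
Smarca2: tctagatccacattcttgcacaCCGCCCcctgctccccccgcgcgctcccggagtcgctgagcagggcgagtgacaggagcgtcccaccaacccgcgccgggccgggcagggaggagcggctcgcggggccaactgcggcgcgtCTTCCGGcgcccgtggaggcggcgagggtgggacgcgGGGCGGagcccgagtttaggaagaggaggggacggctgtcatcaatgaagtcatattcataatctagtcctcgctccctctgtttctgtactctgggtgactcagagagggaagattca
It held 2 GC boxes and 1 ETS motif.

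The subunits Smarcb1, Smarcc1, Smarcc2 and Smarce1 showed smaller differences of means than the 2 motors. This did not hold for every shared subunit, since Actl6a, listed with the partner genes, had means of 966 in WT and 1935 in Mcph1-/-, without overlap. Smarcb1 (SNF5), present in all BAF complexes, was the most read member, at 1717, 1965 and 1931 in WT and 2596, 1702 and 1137 in Mcph1-/-. Its WT libraries lay between the Mcph1-/- libraries, and its log2 fold change was -0.12 (SE 0.31). The scaffold subunits Smarcc1 and Smarcc2 had log2 fold changes of 0.36 (SE 0.54) and -0.11 (SE 0.49), and Smarce1 (BAF57) one of -0.06 (SE 0.60). Of the alternative Smarcd subunits, Smarcd2 was at 69.4, 22.7 and 176 in WT and 449, 77.9 and 779 in Mcph1-/-. Smarcd2, which is needed in granulocyte development, overlapped between genotypes through WT replicate 3 and Mcph1-/- replicate 2, with a log2 fold change of 2.18 (SE 1.19, adjusted p = 0.666 by limma). Smarcd1 and Smarcd3 had log2 fold changes of -0.87 (SE 0.77) and 0.98 (SE 0.97).

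The DNA-binding subunits Arid1a and Arid1b are alternatives within the BAF complex. Arid1b was at 243, 179 and 199 in WT and 347, 461 and 382 in Mcph1-/-, with no overlap and a log2 fold change of 0.93 (SE 0.50, adjusted p = 0.666 by limma). Arid1a was at 107, 729 and 553 in WT and 505, 645 and 317 in Mcph1-/-, and its WT libraries spanned those of Mcph1-/-. Smarcal1, an annealing helicase of stalled replication forks, was at 53.1, 26.8 and 0 in WT and 426, 116 and 167 in Mcph1-/-. All Mcph1-/- libraries of Smarcal1 were above WT, with a log2 fold change of 4.15 (SE 1.79, adjusted p = 0.646 by limma). The markers of dividing cells were higher in the same libraries, at 229% of WT in sum, and their part in this was not tested. Smarca5, an ISWI motor, was at 176, 277 and 397 in WT and 338, 278 and 550 in Mcph1-/-. Its log2 fold change was 0.47 (SE 0.55). The pseudogene Smarca5-ps, which may take reads of Smarca5 and is uncertain for that reason, was at 21.6 to 33.4 in WT and 41.1 to 171 in Mcph1-/-. Smarcad1 had a log2 fold change of -0.14 (SE 0.49).

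In the Chd family Chd1, a remodeler of transcribed genes that binds methylated H3K4, had the smallest p. Chd1 was at 955, 1124 and 1256 in WT and 447, 736 and 352 in Mcph1-/-, at 1112 ± 151 and 512 ± 200 (SD, n = 3). The libraries did not overlap, and the log2 fold change was -1.18 (SE 0.36, adjusted p = 0.614 by limma and 0.0716 by DESeq2). Chd2, its closest relative, was at 1043, 1456 and 1603 in WT and 1179, 1084 and 1154 in Mcph1-/-, with a log2 fold change of -0.24 (SE 0.25). Set against each other per kb of exon in pairs chosen after the values were seen, the log2 ratio of Chd2 to Chd1 was -0.59, -0.34 and -0.36 in WT and 0.69, -0.15 and 1.0 in Mcph1-/-. Chd1 was the higher of the pair in all WT libraries and in Mcph1-/- replicate 2.

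The NuRD motors Chd4 and Chd3 had overlapping libraries. Chd4 was at 999, 1225 and 909 in WT and 1088, 944 and 1208 in Mcph1-/-, with a log2 fold change of 0.05 (SE 0.26), and Chd3 was at 104, 398 and 237 in WT and 234, 216 and 154 in Mcph1-/-, with one of -0.11 (SE 0.73). The sum of Chd3 and Chd4 was 1290 ± 288 in WT against 1281 ± 107 in Mcph1-/- (SD, n = 3). Chd8, which represses targets of Wnt signalling, was at 352, 226 and 199 in WT and 407, 180 and 44.6 in Mcph1-/-. Its libraries overlapped, and its log2 fold change of -0.75 (SE 0.91) was 0.11 without Mcph1-/- replicate 3, its lowest library. Chd1l, a remodeler recruited by poly(ADP-ribose), was scattered, at 70.5, 572 and 325 in WT and 170, 791 and 260 in Mcph1-/-. Chd9 was at 1352, 892 and 871 in WT and 1418, 728 and 1293 in Mcph1-/-, with overlap. Chd6 and Chd9 had log2 fold changes of -0.06 (SE 0.46) and 0.12 (SE 0.34). In all, 3 of 8 were higher and 5 lower, with a median of -0.09. That median was -0.19 by DESeq2, -0.16 by edgeR, -0.41 without WT replicate 1, -0.041 without WT replicate 3, and -0.25, -0.17 and -0.016 without Mcph1-/- replicates 1, 2 and 3.

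The deacetylases had 4 of 9 members higher and 5 lower in Mcph1-/-, and the median log2 fold change was -0.24, with a summed level of 3165 ± 227 in WT and 3242 ± 399 in Mcph1-/- (SD, n = 3). The median was -0.46 by DESeq2 and -0.42 by edgeR, -0.44 and -0.10 without WT replicates 1 and 2, and -0.048 and -0.48 without Mcph1-/- replicates 1 and 2. The class I enzymes Hdac1 and Hdac2 are close relatives that share the Sin3, NuRD and CoREST complexes. Hdac1 was at 316, 353 and 308 in WT and 79.4, 255 and 258 in Mcph1-/-. Its groups did not overlap and Mcph1-/- replicate 1 was the lowest, with a log2 fold change of -0.90 (SE 0.67, adjusted p = 0.726 by limma). Hdac2 was at 436, 572 and 1256 in WT and 969, 1317 and 787 in Mcph1-/-, with a log2 fold change of 0.56 (SE 0.44). WT replicate 3 lay within the Mcph1-/- range of Hdac2, and the other WT libraries below it. Hdac3, the enzyme of the NCoR complex, was at 209, 831 and 902 in WT and 351, 642 and 424 in Mcph1-/-, and Hdac8 had a log2 fold change of -0.88 (SE 1.08). Both overlapped between genotypes. The 4 class I genes summed to 1912 ± 750 in WT and 1785 ± 477 in Mcph1-/-.

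Of the class II and IV enzymes, Hdac10, a polyamine deacetylase, was at 290, 288 and 493 in WT and 786, 690 and 503 in Mcph1-/-. The closest libraries of Hdac10 were at 493 and 503, and its log2 fold change was 0.91 (SE 0.42, adjusted p = 0.662 by limma). Hdac7, a class IIa enzyme of lymphoid and endothelial cells, was at 261, 362 and 28.3 in WT and 466, 382 and 371 in Mcph1-/-. Its log2 fold change of 1.53 (SE 0.97) rested in part on the low WT replicate 3, and its exons overlap those of Slc48a1 on the other strand. The other class IIa genes, Hdac4 and Hdac5, had log2 fold changes of -1.29 (SE 1.26) and 0.01 (SE 0.66). Hdac11, the class IV enzyme, was at 433, 73.1 and 39.5 in WT and 145, 0 and 4.46 in Mcph1-/-. WT replicate 1 and Mcph1-/- replicate 1 were the highest Hdac11 libraries, and the log2 fold change was -3.56 (SE 2.12, adjusted p = 0.680 by limma).

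Of the 5 Kmt2 methyltransferases, 2 were higher and 3 lower in Mcph1-/-, and the median log2 fold change was -0.47. The median was -0.17 without Mcph1-/- replicate 1, -0.24 without WT replicate 3 and -0.29 without WT replicate 1. Kmt2d (MLL4), which marks enhancers, was at 614, 705 and 622 in WT and 502, 527 and 379 in Mcph1-/-. Its libraries did not overlap, with a log2 fold change of -0.47 (SE 0.34, adjusted p = 0.723 by limma). Kmt2c, its relative, was at 849, 276 and 913 in WT and 244, 548 and 518 in Mcph1-/-, with overlap. Kmt2b was at 256, 157 and 69.8 in WT and 0, 97.6 and 2.68 in Mcph1-/-. Only Mcph1-/- replicate 2 reached the WT range of Kmt2b, whose log2 fold change was -4.32 (SE 1.96, adjusted p = 0.662 by limma).

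Kmt2a (MLL1) varied most within WT among these methyltransferases. It was at 18.4, 136 and 1452 in WT, a 78.7-fold range, and at 386, 604 and 613 in Mcph1-/-. Its means were almost equal, 535 and 534, while its log2 fold change was 1.74 (SE 1.36, adjusted p = 0.728 by limma) and -0.0040 by DESeq2. The direction of Kmt2a therefore depends on the scale. Kmt2e (MLL5), which lacks methyltransferase activity of its own, was the most read of the family, at 2328, 911 and 2192 in WT and 2250, 1627 and 1409 in Mcph1-/-. The Kmt2e means were 1810 ± 782 and 1762 ± 437 (SD, n = 3), and its exons overlap those of Srpk2 on the other strand.

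**Figure D3:**
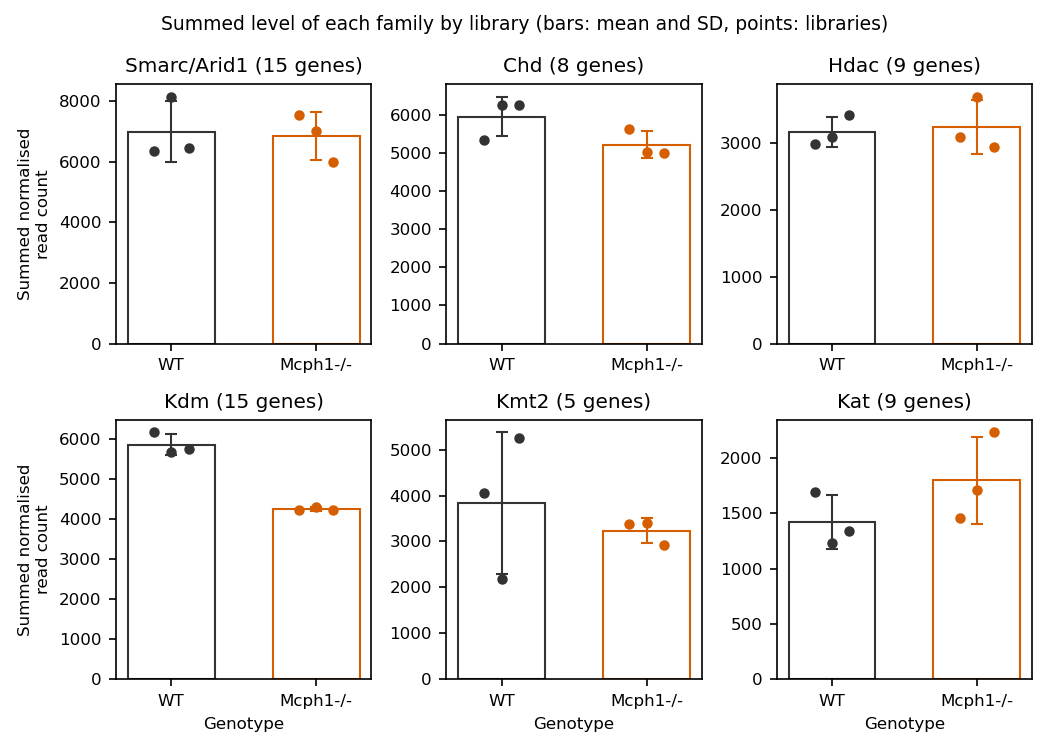
Summed normalised read count of each family in each library, by genotype, with 15 Smarc and Arid1, 8 Chd, 9 Hdac, 15 Kdm, 5 Kmt2 and 9 Kat genes. Points are libraries, bars means and error bars 1 SD (n = 3), and each panel has its own vertical axis from 0. The Kdm libraries lie at 5660 to 6157 in WT and 4225 to 4304 in Mcph1-/-, and in each of the other families the genotypes overlap.

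The acetyltransferases were the family with the largest share of higher members, 7 of 8 tested, with a median log2 fold change of 1.44 that was 0.50 by DESeq2, 0.53 by edgeR and 0.77 with a pseudocount of 16, and 0.84 over 9 genes with no filter. Their summed level was 1421 ± 243 in WT against 1799 ± 397 in Mcph1-/- (SD, n = 3). The direction reversed for Kat2b without WT replicate 1, for Kat7 without WT replicate 2 and for Kat8 without WT replicate 3. Kat14 (CSRP2BP), a subunit of the ATAC complex, was at 5.42, 13.4 and 16.2 in WT and 127, 130 and 178 in Mcph1-/-. Every Mcph1-/- library was far above every WT library. The log2 fold change was 3.63 (SE 1.32, adjusted p = 0.626 by limma), and it passed by DESeq2 (adjusted p = 0.0082) and not by edgeR (adjusted p = 0.803). The gene lies at chr2:144368983-144407676 on the plus strand of mm10. Its exons overlap those of Pet117 on the same strand, so its reads are uncertain. The Kat14 promoter is shown because Kat14 is the higher member that DESeq2 called (chr2:144368782-144369081, plus strand, RefSeq GRCm38.p6, motif matches in capitals as before).
Kat14: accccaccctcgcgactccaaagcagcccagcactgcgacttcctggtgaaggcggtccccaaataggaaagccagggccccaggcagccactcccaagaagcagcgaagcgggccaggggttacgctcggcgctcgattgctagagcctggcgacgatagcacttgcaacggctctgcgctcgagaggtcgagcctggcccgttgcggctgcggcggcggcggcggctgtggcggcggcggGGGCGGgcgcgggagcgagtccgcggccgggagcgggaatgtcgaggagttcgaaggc
It held 1 GC box, with a CpG ratio of 0.98.

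The other acetyltransferases overlapped between genotypes. Kat2a (GCN5), the enzyme of SAGA and ATAC, was at 341, 0 and 257 in WT and 174, 386 and 617 in Mcph1-/-, and Kat2b (PCAF) at 0, 88.6 and 238 in WT and 228, 50.9 and 126 in Mcph1-/-. Kat7 (HBO1), a MYST enzyme of replication origins and H3K14, was at 202, 0 and 169 in WT and 154, 164 and 121 in Mcph1-/-. The log2 fold changes of Kat2a, Kat2b and Kat7 were 2.96 (SE 2.12), 2.05 (SE 2.11) and 2.17 (SE 2.07). Each of the 3 has a WT library at 0 reads, which lowers its WT mean on the log scale. Their ratios of means were smaller, at 1.97, 1.24 and 1.18.

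Kat5 (TIP60), which acetylates H4 and ATM, was at 308, 386 and 163 in WT and 446, 357 and 586 in Mcph1-/-, with a log2 fold change of 0.75 (SE 0.52, adjusted p = 0.708 by limma). Only WT replicate 2 reached the Mcph1-/- range of Kat5, whose exons overlap Rnaseh2c on the other strand. Kat8 (MOF), the H4K16 enzyme, was at 152, 580 and 41.5 in WT and 122, 241 and 446 in Mcph1-/-, with a log2 fold change of 0.61 (SE 1.06). Kat6a (MOZ) was the member of the family that was lower, at 522, 56.7 and 408 in WT and 38.3, 131 and 82.1 in Mcph1-/-. WT replicate 2 of Kat6a lay within the Mcph1-/- range, and its log2 fold change was -1.61 (SE 1.12, adjusted p = 0.712 by limma). Its relative Kat6b had 0.84 (SE 1.07). The 5 MYST genes Kat5, Kat6a, Kat6b, Kat7 and Kat8 summed to 1095 ± 270 in WT and 1124 ± 195 in Mcph1-/- (SD, n = 3). The pseudogene Kat2b-ps had 0 to 14.2.

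**Figure D4:**
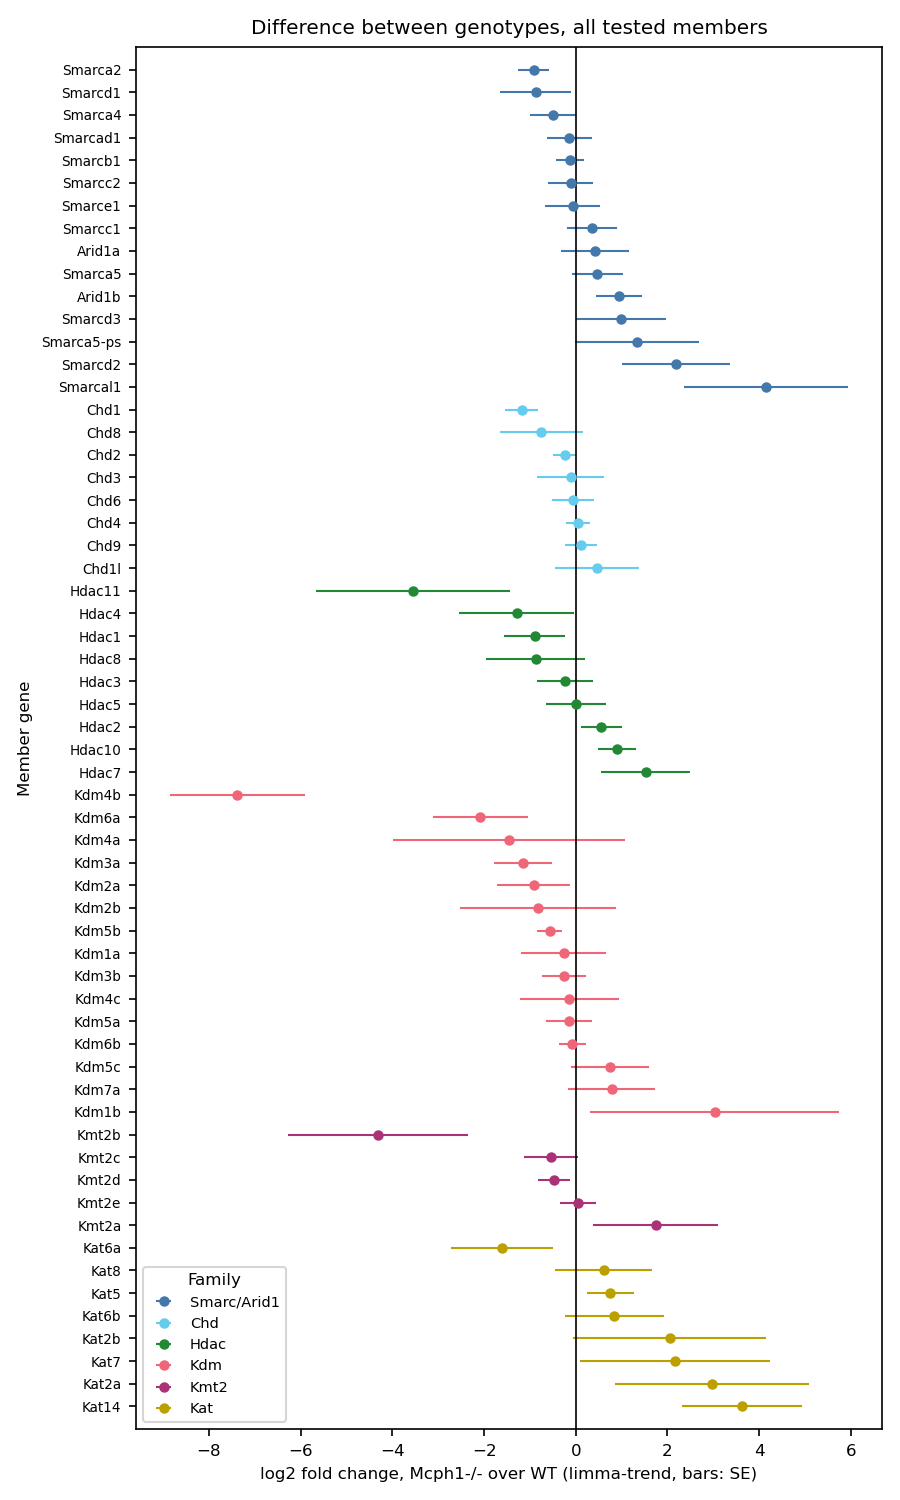
Log2 fold change (Mcph1-/- over WT, horizontal axis) of the 60 tested members by limma-trend, ordered within each family, with bars of 1 SE. Kdm4b lies at -7.38 and Kat14 at 3.63. No member has an adjusted p under 0.05.

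Levels between genes are compared here per kb of exon, since the median exonic length was 7.80 kb for members and 4.13 kb for all tested genes. On this scale the highest WT means were Smarcb1 at 236, Kmt2e at 173, Hdac2 at 169, Hdac3 at 160 and Kdm6b at 148 normalised reads per kb. In Mcph1-/- these genes were at 228, 169, 229, 117 and 141. Chd4 was at 130 in WT and 135 in Mcph1-/-. Chd1 and Smarca2 were in the upper part of the WT order, at 127 and 107, and at 58.7 and 57.5 in Mcph1-/-. Smarca4 was at 126 ± 67.8 and 88.4 ± 42.2 (SD, n = 3), so its place beside Chd1 and Smarca2 is within its spread. The log2 ratio of Kdm5b to Kdm5c per kb was 1.25, 3.67 and 0.66 in WT and 0.50, 0.61 and 0.47 in Mcph1-/-, lower in each Mcph1-/- library than in any WT library. That of Hdac2 to Hdac1 was 0.69 ± 0.84 in WT against 2.15 ± 1.01 in Mcph1-/- (SD, n = 3), and the libraries overlapped. Of all the pairs compared in this way, chosen after the values were seen, only Kdm5b with Kdm5c and Chd2 with Chd1 were separate. Overlap was found for Smarca4 with Smarca2, Arid1a with Arid1b, Smarcc1 with Smarcc2, Chd4 with Chd3, and Hdac2 with Hdac1 or Hdac3. It was also found for Kdm6b with Kdm6a, Kdm5b with Kdm5a, Kmt2d with Kmt2c, and Kmt2e with Kmt2a. Of all tested genes taken singly, 7.4% were separate above WT and 6.8% below, and other pairs were not compared.

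**Figure D5:**
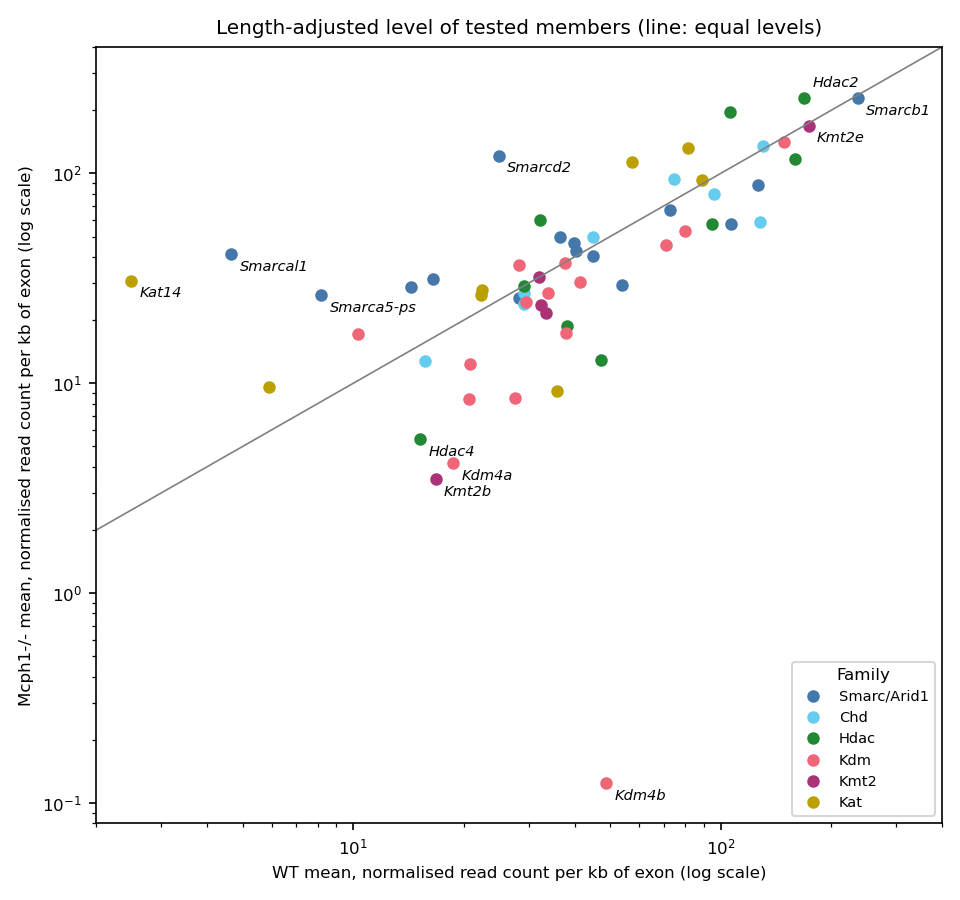
Mean normalised read count per kb of exon in WT (horizontal axis) and Mcph1-/- (vertical axis) for the 60 tested members, both on log scales, coloured by family, with a line of equal levels. Smarcb1 and Kmt2e lie near the line, Kat14 and Smarcal1 far above it, and Kdm4b far below it.

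Members varied between libraries of a genotype, as other genes did. The highest WT library was over 4-fold above the lowest for 22 of 60 members, 36.7%, against 42.8% of all tested genes, and in Mcph1-/- for 13, 21.7%, against 30.8%. The median SD of log2 values was 0.74 in WT and 0.54 in Mcph1-/- for members, and 0.85 and 0.61 for all tested genes. Of the tested members, 9 had 0 reads in at least 1 library, 15%, against 24.6% of all tested genes. The steadiest members in WT were Smarcb1, Kmt2d, Hdac1 and Chd1, whose highest library was 1.14-, 1.15-, 1.15- and 1.31-fold above their lowest.

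Other subunits of the same complexes were read from lists of partner genes. Of 105 tested partners, 51 were higher and 54 lower in Mcph1-/-, and the median log2 fold change was -0.02, and 0 passed by limma or edgeR (9 had an unadjusted limma p under 0.05, 8.57% against 7.71% of all tested genes, and 7 an unadjusted edgeR p under 0.05, 6.67% against 5.47%). DESeq2 called 6 of them, 5.71%, against 2.23% of all genes with an adjusted p. Every Mcph1-/- library lay above every WT library for 6 of the 105 partners, 5.71%, against 7.4% of all tested genes. The reverse order was found for 8 partners, 7.62%, against 6.8% of all tested genes. Of 14 BAF and PBAF partners 8 were higher and 6 lower, with a median of 0.25. Brd9, the bromodomain subunit of the non-canonical BAF complex, was at 746, 880 and 719 in WT and 336, 273 and 138 in Mcph1-/-, and the actin-related subunit Actl6a (BAF53a) at 595, 922 and 1382 in WT and 1850, 1883 and 2072 in Mcph1-/-. The libraries of these 2 genes did not overlap, with log2 fold changes of -1.73 (SE 0.46) and 1.08 (SE 0.32).

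Of 10 NuRD partners 5 were higher and 5 lower, with a median of 0.02. Gatad2b, a p66 subunit, was at 347, 249 and 81.0 in WT and 0, 9.02 and 0.893 in Mcph1-/-, and Mta2 at 242, 888 and 1881 in WT and 122, 558 and 392 in Mcph1-/-, with overlap and a log2 fold change of -1.30 (SE 0.84). Gatad2b was near 0 in the Mcph1-/- libraries, as Kdm4b was, with a log2 fold change of -6.17 (SE 1.63). Of 18 Sin3, CoREST and NCoR partners 8 were higher and 10 lower, with a median of -0.15, and the smallest p values belonged to Sin3a and Gse1. The scaffold Sin3a was at 525, 383 and 789 in WT and 481, 157 and 68.7 in Mcph1-/- (log2 fold change -1.63, SE 0.76), and Gse1 at 1257, 622 and 707 in WT and 662, 116 and 522 in Mcph1-/- (log2 fold change -1.26, SE 0.67). Both overlapped between genotypes. Of 19 ISWI and INO80 partners 7 were higher and 12 lower, with a median of -0.05, and the smallest p values there were those of Actr6 and Ruvbl2. Actr6, an actin-related subunit, was at 270, 437 and 555 in WT and 190, 217 and 143 in Mcph1-/-, without overlap (log2 fold change -1.16, SE 0.56). The helicase Ruvbl2 was at 2481, 2606 and 3486 in WT and 2956, 4137 and 4898 in Mcph1-/-, with overlap (log2 fold change 0.47, SE 0.24).

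Of 14 COMPASS partners, which assemble with the Kmt2 enzymes, 6 were higher and 8 lower, with a median of -0.06. None had separate libraries, while 7.4% of all tested genes were separate above WT and 6.8% below. Wdr82 and Hcfc2, which had the smallest p there, each had 0 reads in a single library. Wdr82 was at 0, 124 and 159 in WT and 152, 135 and 249 in Mcph1-/-, and Hcfc2 at 361, 196 and 280 in WT and 0, 240 and 278 in Mcph1-/-. Of 30 acetyltransferase partners 17 were higher and 13 lower, with a median of 0.17. The growth inhibitor proteins Ing1 and Ing3, both on that list, differed in direction. Ing1, which is known from the Sin3 deacetylase complex although it was listed here, was at 639, 860 and 1367 in WT and 202, 392 and 294 in Mcph1-/-, and Ing3, of the TIP60 complex, at 377, 236 and 212 in WT and 616, 976 and 714 in Mcph1-/-. Neither overlapped between genotypes, with log2 fold changes of -1.67 (SE 0.45) and 1.50 (SE 0.43).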

How the data were processed

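The deposited signal is 1 value per gene and library, gene read counts that the authors divided by 1 size factor per library. Every value is a whole number of steps of 1 read (tolerance 0.001 reads), from which whole reads were recovered. For processing, mm10, HISAT2, featureCounts, Trim Galore 0.6.6 and DESeq2 are named, with no role, per the submitters' processing notes. Neither the annotation release nor the strand setting is given in the sources used here, and genes with overlapping exons are uncertain.

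Genes with a mean of at least 10 were tested with limma-trend (limma 3.58.1, R 4.3.3) on log2(value + 1), with all 6 libraries, no covariate and Benjamini-Hochberg adjustment at 0.05. The added 1 understates changes of low genes, while a library at 0 pulls a mean of logs down. On recovered reads, edgeR 4.0.16 (quasi-likelihood), DESeq2 1.42.0 and limma-voom were run as alternatives. Other alternatives were a minimum of 50 or none, pseudocounts of 16 and 0.5, TMM scaling, scaling to the total, a replicate block, and each library left out. Replicates of a genotype differed by more than sampling noise (chi-square of 82.9 or more per degree of freedom). Positions and exonic lengths are from GENCODE vM21 (mm10), 1-based.

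The members and lists were chosen with earlier results of these data known. By rule, library values were given for the 4 members with the smallest p and the 2 with the highest mean in each family, for members fixed by role and for those with 0 reads in 2 or 3 libraries of a genotype, and for up to 2 partners per list with the smallest p. Other members whose library values appear were named after their values were seen. Chromatin accessibility data of the series are not analysed here.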

Additional observations from a re-analysis of the deposited data

How the results depend on the processing

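The number of members past the threshold was 0 by limma and in each alternative except DESeq2, where it was 2. Over all genes it was 4 by limma, 2 by edgeR, 1 by limma-voom and 238 by DESeq2 (120 higher and 118 lower), and 1 to 4 with a library left out, being 1 without WT replicate 1 or 2 and 2 without Mcph1-/- replicate 1. Deviations of same-numbered libraries were close to uncorrelated (-0.014, 0.018 and -0.030), which cannot settle whether the replicate numbers pair the libraries. With a replicate block 3 genes and 0 members passed. The median over members was -0.13 to 0.041 with a library left out, positive without Mcph1-/- replicate 3, and the number of members higher 23 to 31 over all alternatives. The summed Kdm level in Mcph1-/- was 0.714 to 0.746 of WT with a library left out or rescaled, and the number of Kdm genes lower was 8 (without WT replicate 3) to 13 (DESeq2). Of 41 members fixed by the naming rule, 24 kept their direction in all 16 alternatives. Reversed log2 fold changes were -0.24 (edgeR) and -0.28 (DESeq2) for Kdm1b, 0.021 for Kdm5a by edgeR, -0.0040 for Kmt2a by DESeq2, and -0.0074 (edgeR) and -0.041 (DESeq2) for Kmt2e. With a library left out, ranges that crossed 0 were -0.44 to 0.94 for Arid1a, -0.40 to 1.10 for Chd1l, -0.63 to 0.33 for Chd3, -0.042 to 0.17 for Chd4, -1.47 to 0.11 for Chd8, -0.067 to 0.41 for Chd9, -0.92 to 0.13 for Hdac3, -0.35 to 3.48 for Kat7, -0.33 to 1.56 for Kat8, -1.24 to 0.24 for Kdm1a, -0.41 to 0.36 for Kdm5a, -0.087 to 1.2 for Kdm5c, -0.24 to 0.091 for Kdm6b, -0.39 to 0.29 for Kmt2e and -0.42 to 0.17 for Smarcb1. The cause of these changes was not tested. The 9 tested members with 0 reads in at least 1 library were Hdac11, Kat2a, Kat2b, Kat7, Kdm1b, Kdm4a, Kdm4b, Kmt2b and Smarcal1. In such a library a normalised read count of up to 2.46 to 3.25 was not detectable.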
